A study of Dicentrarchus labrax with 23 samples.

Results

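Neutrophils and eosinophils store heme peroxidases in their granules, and phagocytes carry a membrane oxidase that makes the superoxide from which the hydrogen peroxide used by these peroxidases is formed. Myeloperoxidase is the peroxidase of the neutrophil granules and turns hydrogen peroxide and chloride into hypochlorous acid. Eosinophil peroxidase is its relative in eosinophils and prefers bromide and thiocyanate. Cytochrome b-245 light chain is one of the membrane subunits of the phagocyte NADPH oxidase, and neutrophil cytosol factors 1 and 2 are cytosolic subunits that join it when the cell is activated. These roles are known from mammals, and in zebrafish the myeloperoxidase gene marks the neutrophils.

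The transcripts of this system were followed in the intestine of European sea bass (Dicentrarchus labrax). The set held 4 of the 14147 probes on the array, which were chosen by name, namely myeloperoxidase (CUST_L2_63315), myeloperoxidase-like (CUST_L1_21941), eosinophil peroxidase (CUST_L2_62431) and cytochrome b-245 light chain (CUST_L12_83075). Total RNA of the anterior (AI), middle (MI) and posterior (PI) intestine of single fish, which were reared in captivity, fed a commercial diet and fasted overnight, carried the dye Cy3 on a 1-colour oligonucleotide array of custom design. Values were available for 8 AI, 7 MI and 8 PI arrays, so that the segment was the only factor, and AI and MI together (AI-MI) gave 15 arrays to set against PI. The PI samples took in the rectum, and blood had been drawn from the fish before sampling. No fish was treated, and RNA came from tissue and not from sorted cells, so that fewer cells of a type and less RNA per cell cannot be told apart.

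The probe names came from a table of the study that listed genes differing between AI-MI and PI on these same arrays. Hence, all 4 probes had to differ in AI-MI vs. PI, and the comparisons of PI with AI and with MI use the same arrays. The calls of the set in these 3 comparisons describe it without being independent evidence of its direction. AI vs. MI and the relation of the probes to each other within a segment were not used to choose them. The inequality of their changes rests on the AI-MI vs. PI contrast, for which the choice asked only that each probe differ. The RefSeq gene table for the species (assembly dlabrax2021) lists 1 mpx gene and 1 epx gene, and none under cyba, the symbol of the light chain. No probe ID matched an entry of that table. Which gene each of the 4 probes reads, and whether the 3 peroxidase probes read separate transcripts, therefore cannot be told here.

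Signals are given as log2 of the processed intensity minus the 75th percentile of the same array, so that 0 is the level of that percentile. All 4 probes were well above background on all 23 arrays, with processed intensities from 49.2 to 12384, and 12894 probes that were above background on at least 7 arrays were tested. Across arrays the 75th percentile ranged from 388 to 1183 intensity units and the share of probes above background from 82.8% to 93.1%. Epithelial markers were detected in every segment (4 of 5 on every array of each segment), and the posterior identity genes cubilin, amnionless, Hox-A13a and Hox-C13a separated PI from both other segments. AI replicate 2 and MI replicate 7 stood apart in the AI vs. MI comparison, where no probe was called with all arrays, 588 were called without the former, 40 without the latter and 1048 without both.

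Myeloperoxidase was higher in PI than in AI-MI, while its AI and MI arrays were not separated by a call. In AI it ranged from -3.87 to -0.31 with a median of -1.57, and in MI from -1.89 to -0.02 with a median of -1.32. In PI it ranged from -0.67 to 2.18 with a median of 0.39. The segments overlapped, since 4 of the 8 PI arrays were above every AI and MI array and the other 4 were not. The segment means were -1.86 ± 1.09 (SD, n = 8) for AI, -1.18 ± 0.62 (SD, n = 7) for MI and 0.65 ± 1.15 (SD, n = 8) for PI. The difference of PI from AI-MI was 2.19 ± 0.42 (SE), or 4.58-fold, with an adjusted p of 0.000157 in limma.

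Eosinophil peroxidase gave nearly the same values array by array. It ranged from -3.59 to -0.31 in AI (median -1.59), from -1.84 to 0.18 in MI (median -1.08) and from -0.52 to 2.37 in PI (median 0.58). The same 4 PI arrays, replicates 1, 2, 3 and 7, were above every AI and MI array. The means were -1.75 ± 1.04 (SD, n = 8), -1.02 ± 0.66 (SD, n = 7) and 0.81 ± 1.17 (SD, n = 8), and PI was above AI-MI by 2.22 ± 0.42 (SE), or 4.64-fold (limma, adjusted p = 0.000149).

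The myeloperoxidase-like probe spanned a narrower range than the other peroxidase probes in each segment. It ranged from 0.26 to 1.93 in AI (median 1.26), from 1.18 to 2.71 in MI (median 1.59) and from 1.93 to 4.41 in PI (median 2.93). All 8 PI arrays were above every AI array, and 4 of them were above every MI array. The means were 1.16 ± 0.52 (SD, n = 8), 1.74 ± 0.61 (SD, n = 7) and 2.98 ± 0.96 (SD, n = 8), and PI exceeded AI-MI by 1.55 ± 0.31 (SE), or 2.94-fold (limma, adjusted p = 0.000266).

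Cytochrome b-245 light chain, a membrane subunit of the oxidase, was higher in PI than in AI-MI as well, and its MI arrays were split. In AI it ranged from -1.03 to 0.89 (median -0.82), with AI replicate 2 far above the other 7 arrays, whose highest value was -0.16. In MI it ranged from -0.77 to 1.34 (median 0.70), with replicates 5 and 7 at -0.77 and -0.66 and the other 5 arrays at 0.65 or higher. In PI it ranged from 0.65 to 2.84 (median 1.38), and again replicates 1, 2, 3 and 7 were the 4 arrays above every AI and MI array. The means were -0.51 ± 0.64 (SD, n = 8), 0.44 ± 0.82 (SD, n = 7) and 1.57 ± 0.82 (SD, n = 8), and PI was above AI-MI by 1.64 ± 0.35 (SE), or 3.11-fold (limma, adjusted p = 0.000526).

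**Figure D1:**
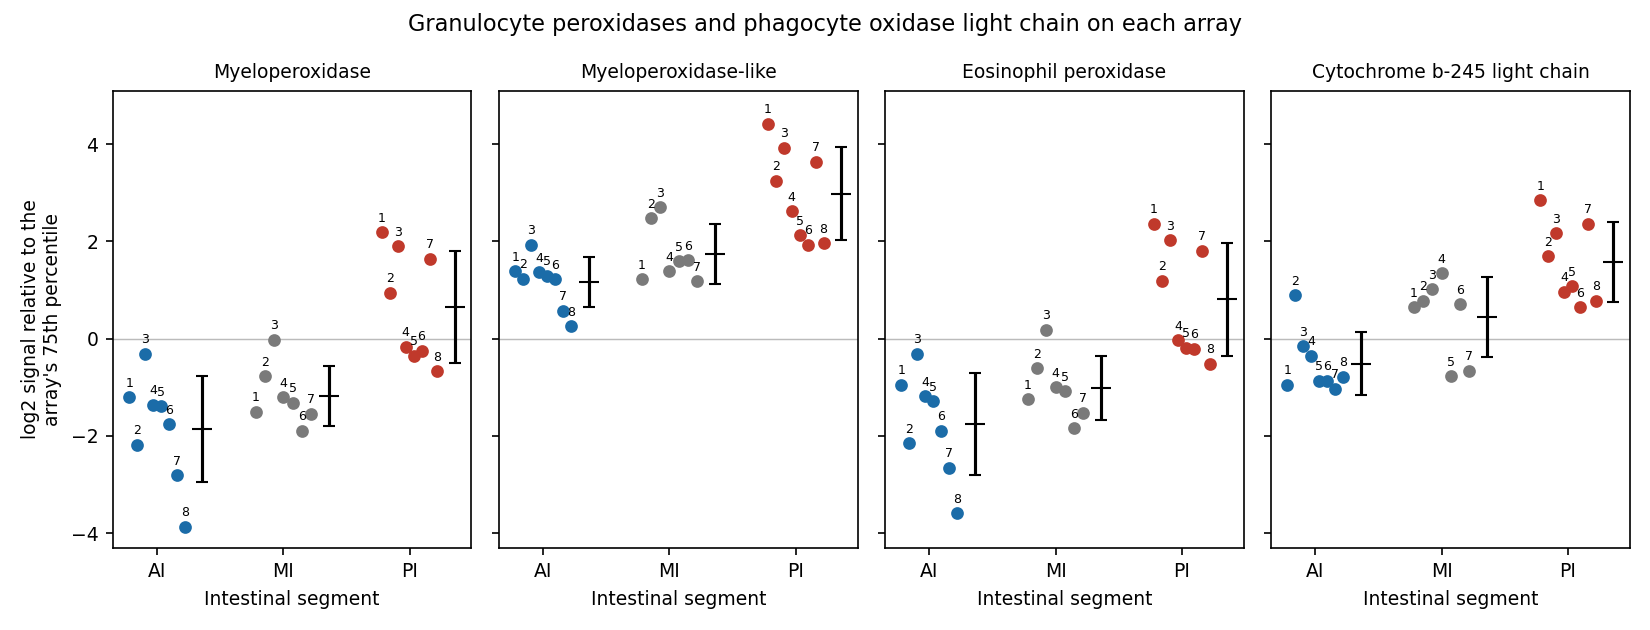
Each panel plots 1 probe, with the intestinal segment on the x axis and the log2 signal relative to the 75th percentile of the array on the y axis; points are single arrays labelled by replicate number, and the black marks are the mean and SD of the segment. PI replicates 1, 2, 3 and 7 lie above all AI and MI arrays in every panel, and PI replicates 4, 5, 6 and 8 overlap with the MI arrays.

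In AI-MI vs. PI, 44.1% of all tested probes were called at an adjusted p under 0.05, and 22.6% were called as higher in PI, a share that stands beside the 4 of 4 probes of the set called in that direction. For size, 1.73% of the tested probes had a larger difference toward PI than myeloperoxidase, 1.68% than eosinophil peroxidase, 3.35% than myeloperoxidase-like and 3.05% than cytochrome b-245 light chain. The median difference of the 4 probes was 1.92, against -0.01 over all tested probes.

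Against AI alone, where 42.1% of the probes were called and 21.3% as higher in PI, all 4 probes were higher in PI. The differences were 2.51 ± 0.51 (SE) for myeloperoxidase, 2.56 ± 0.51 for eosinophil peroxidase, 1.82 ± 0.36 for myeloperoxidase-like and 2.08 ± 0.34 for cytochrome b-245 light chain, which are 5.70-, 5.89-, 3.54- and 4.23-fold. Their adjusted p values in limma, from fits that did not pair the arrays, were 0.000797, 0.000618, 0.000545 and 0.00011. When AI and PI arrays of the same number were paired, PI was the higher in 8 of 8 pairs for every probe of the set. The smallest of these differences was 0.71, for myeloperoxidase-like, and the largest was 4.46, for eosinophil peroxidase.

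Against MI alone, where 35.0% of the probes were called and 18.8% as higher in PI, the differences were smaller. Myeloperoxidase and eosinophil peroxidase differed by 1.83 ± 0.45 and 1.82 ± 0.46 (SE; 3.56- and 3.54-fold), with adjusted p values of 0.00462 and 0.00575 in limma. Myeloperoxidase-like differed by 1.24 ± 0.39 (2.37-fold, limma, adjusted p = 0.0208). The light chain differed by 1.13 ± 0.39 (2.19-fold, limma, adjusted p = 0.034), and this was the weakest call of the set. When MI and PI arrays of the same number were set side by side, PI was the higher in 7 of 7 for each of the 3 peroxidases and in 5 of 7 for the light chain, whose lowest difference was -0.37 (number 4). These numbers did not meet the rule for pairing. The call of the light chain was lost when any 1 of MI replicates 5 and 7 or PI replicates 1, 2, 3 and 7 was left out, with adjusted p values between 0.0522 and 0.0745, while the difference stayed between 0.93 and 1.11.

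AI vs. MI was the comparison that had no part in the choice of the probes. Here 0 of the 12894 probes (0%) passed the adjusted threshold in limma, and 1638 had an unadjusted p under 0.05. All 4 probes had a higher mean in MI, but none of the differences passed. The light chain was the closest, at 0.95 (95% interval 0.21 to 1.69, limma, adjusted p = 0.274), with 5 of the 7 MI arrays above the AI mean. Without AI replicate 2 the light chain was called at a difference of 1.15 (limma, adjusted p = 0.0489). Without AI replicate 2 and MI replicate 7 it was called at 1.33 (limma, adjusted p = 0.00997). Both removals had to widen the difference, since AI replicate 2 was its highest AI array (0.89) and MI replicate 7 was low (-0.66). MI replicate 5, its lowest MI array (-0.77), stayed in. These calls are therefore not further evidence of a difference.

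The intervals of the 3 peroxidases in AI vs. MI also reached differences of more than 1 log2 unit. Myeloperoxidase-like was higher in MI by 0.58 (95% interval 0.00 to 1.16, limma, adjusted p = 0.392), with all 7 MI arrays above the AI mean. Eosinophil peroxidase was higher by 0.74 (95% interval -0.16 to 1.63, limma, adjusted p = 0.493) and myeloperoxidase by 0.68 (95% interval -0.24 to 1.59, limma, adjusted p = 0.539). Leaving out 1 array moved the difference of myeloperoxidase between 0.39 and 0.90, that of eosinophil peroxidase between 0.47 and 0.94 and that of myeloperoxidase-like between 0.42 and 0.69. The lowest of the first 2 came without AI replicate 8, and none was called (limma, adjusted p of 0.268 or more).

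**Figure D2:**
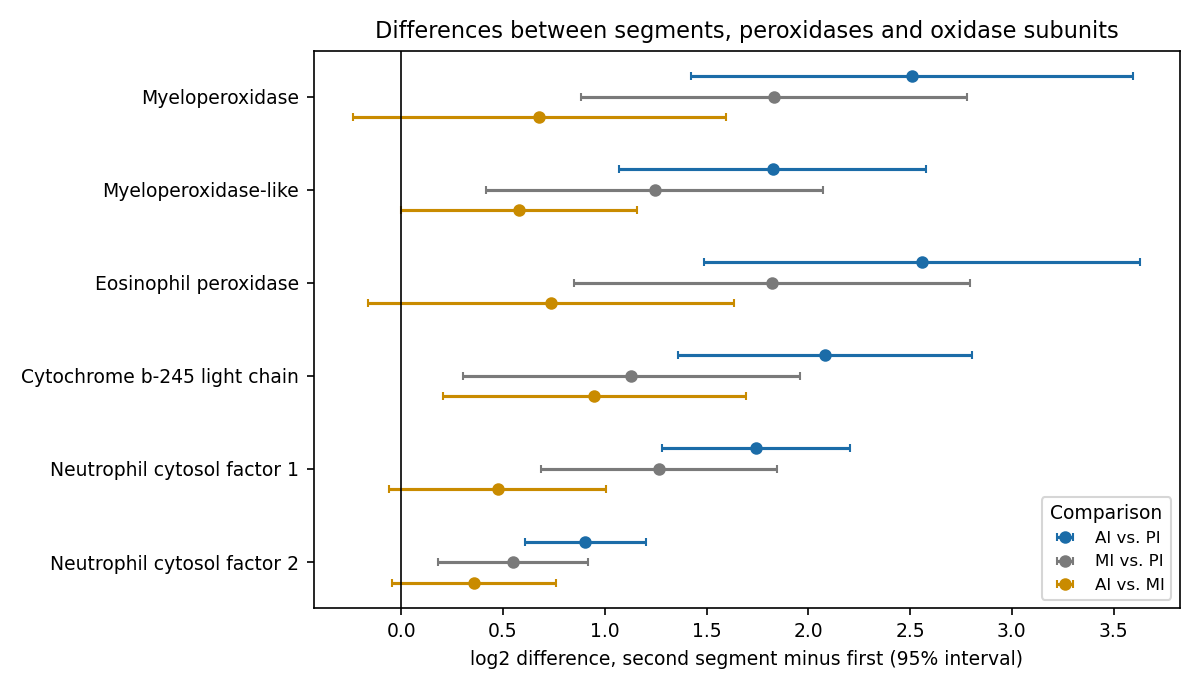
The log2 difference between segments (x axis, the segment named last minus the one named first) is drawn for the 4 probes and for neutrophil cytosol factors 1 and 2 (y axis); points are limma estimates, bars are 95% intervals and colours are comparisons. The intervals of AI vs. PI and MI vs. PI lie above 0 for all 6 probes, and those of AI vs. MI lie at or across 0 except for the light chain, whose interval starts at 0.21 although its adjusted p was 0.274.

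The arrays were printed on 3 slides, each of which held arrays of all 3 segments, so the differences could be read within a slide. Within slides the AI-MI vs. PI difference was 1.86 to 2.77 for myeloperoxidase, 1.89 to 2.76 for eosinophil peroxidase, 1.52 to 2.01 for myeloperoxidase-like and 1.70 to 1.90 for the light chain. PI was higher on all 3 slides for all 4 probes. With 2 or 3 PI arrays on a slide, myeloperoxidase-like lost its call on slide 3 and the light chain on slides 1 and 3, with adjusted p values of 0.066, 0.0646 and 0.0712. In AI vs. MI the difference of myeloperoxidase was 1.62 on slide 3 and 0.47 and 0.24 on slides 1 and 2, and the lowest AI values of all 3 peroxidases (replicates 7 and 8) were on slide 3.

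The 4 probes did not all change by the same amount. The ratio of myeloperoxidase to myeloperoxidase-like was 0.64 log2 units higher in PI than in AI-MI, above the AI-MI mean on 8 of 8 PI arrays (exact permutation test of 490314 splits, two-sided, p = 0.00208, adjusted p over 6 pairs 0.00623). The ratio of myeloperoxidase-like to eosinophil peroxidase was lower in PI by 0.66, below the AI-MI mean on 8 of 8 PI arrays (exact permutation test, p = 0.00193, adjusted p = 0.00623). The myeloperoxidase-like probe thus rose less than the other 2 peroxidase probes. Those 2 gave nearly the same values and may not read separate transcripts, so the 2 inequalities are not separate results. The exact permutation test did not pair the arrays. With PI set against the mean of the AI and MI arrays of its own number, an alternative added after seeing the data, the inequalities were 0.71 and -0.72, in that direction for 7 of 8 numbers each (exact sign-flip permutation over 8 numbers, two-sided, adjusted p = 0.0469 for both, smallest unadjusted p possible 0.00781). With the normexp background correction the myeloperoxidase to myeloperoxidase-like inequality shrank to 0.29 and was not called (exact permutation test, adjusted p = 0.0725). The myeloperoxidase-like to eosinophil peroxidase inequality kept its call under that correction.

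By contrast, myeloperoxidase and eosinophil peroxidase moved together to within 0.02 log2 units between AI-MI and PI (exact permutation test, adjusted p = 0.762). Over all 23 arrays their log2 ratio had an SD of 0.10, compared with 0.52 for myeloperoxidase with myeloperoxidase-like and 0.88 for myeloperoxidase with the light chain. With the normexp correction eosinophil peroxidase rose more than myeloperoxidase by 0.16 (exact permutation test, adjusted p = 0.0287). No inequality was called between the light chain and any peroxidase, with differences of 0.56 for myeloperoxidase, 0.58 for eosinophil peroxidase and -0.08 for myeloperoxidase-like, and with adjusted p values of 0.227 or more in the exact permutation test.

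Arrays of a segment varied in these transcripts more than in most others. By the share of tested probes with a larger SD, this was most marked in PI for each of them. Within PI the SD of myeloperoxidase was 1.15, where the median SD of the tested probes was 0.32, and 2.71% of the tested probes had a larger one. The corresponding shares in PI were 2.61% for eosinophil peroxidase, 4.18% for myeloperoxidase-like and 6.16% for the light chain. In AI they were 4.61% for myeloperoxidase, 5.06% for eosinophil peroxidase, 29.1% for myeloperoxidase-like and 17.7% for the light chain. In MI they were 16.8%, 14.4%, 17.2% and 8.71% in the same order. From the lowest to the highest PI array the signal spanned 7.21-fold for myeloperoxidase, 7.37-fold for eosinophil peroxidase, 5.59-fold for myeloperoxidase-like and 4.58-fold for the light chain. In AI the spans were wider for myeloperoxidase and eosinophil peroxidase, 11.8- and 9.68-fold, and AI replicate 8 was the lowest array for all 3 peroxidases.

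Split at the widest gap, the PI arrays fell into the same 2 sets of 4 for all 4 probes. The 3 peroxidase probes may not read separate transcripts, so they may not be separate observations of this split. Myeloperoxidase was at 2.18, 1.90, 1.64 and 0.94 on PI replicates 1, 3, 7 and 2, and at -0.17, -0.25, -0.35 and -0.67 on replicates 4, 6, 5 and 8. The gap between the sets was 1.11 log2 units for myeloperoxidase, 1.23 for eosinophil peroxidase, 0.62 for myeloperoxidase-like and 0.62 for the light chain, and it was the widest gap among the PI arrays for each of them. For the last 2 the arrays were spread more evenly. Myeloperoxidase-like was at 4.41, 3.93, 3.63 and 3.25 on replicates 1, 3, 7 and 2, and at 2.62 and 2.13 on replicates 4 and 5. The light chain was at 2.84, 2.37, 2.17 and 1.69 on replicates 1, 7, 3 and 2, and at 1.08 on replicate 5. The order within the upper set was 1, 3, 7, 2 for the 3 peroxidases and 1, 7, 3, 2 for the light chain. The upper set held both PI arrays of slide 1 and 1 of the 3 PI arrays of each other slide. The labels give no sex, size or health state by which the fish of these arrays could be compared.

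**Figure D3:**
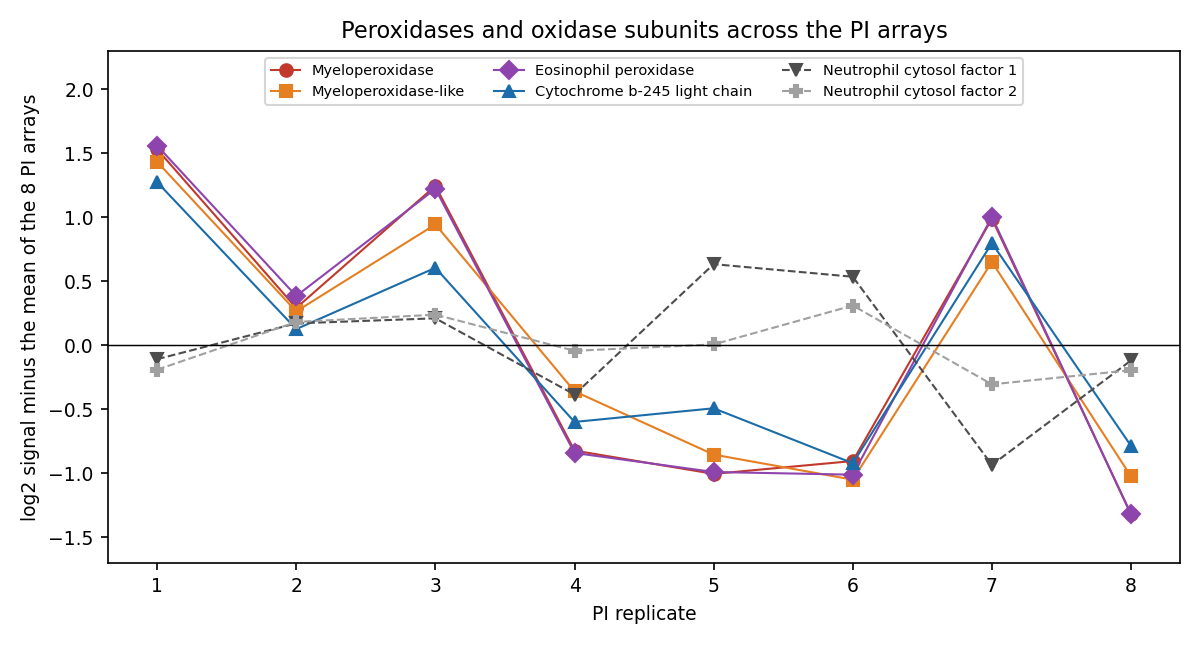
For each PI replicate (x axis), the log2 signal minus the mean of the 8 PI arrays (y axis) is plotted for the 4 probes (solid lines) and for neutrophil cytosol factors 1 and 2 (dashed lines). The 4 solid lines are above 0 on replicates 1, 2, 3 and 7 and below 0 on replicates 4, 5, 6 and 8, and the dashed lines are both lowest on replicate 7.

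In AI and PI the 3 peroxidases followed one another across fish, and in MI myeloperoxidase and eosinophil peroxidase did. Myeloperoxidase and eosinophil peroxidase correlated at r = 0.993 in AI, 0.992 in MI and 0.999 in PI (Spearman's rho 1 in AI, 1 in MI and 0.976 in PI), with adjusted p values of 0.000298, 0.00051 and 0.000298 for r (exact permutation, 18 relations) and 0.000893, 0.00119 and 0.00119 for rho. Without the 2 arrays farthest from the median of myeloperoxidase, r was 0.979, 0.962 and 0.998. Myeloperoxidase and myeloperoxidase-like correlated at r = 0.976 in AI (rho 0.976) and 0.979 in PI (rho 0.929), both with an adjusted exact permutation p of 0.000298 for r and of 0.00119 and 0.00446 for rho, and without the 2 farthest arrays r was 0.907 and 0.958.

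In MI the relations to myeloperoxidase-like were looser. Myeloperoxidase had r = 0.852 and rho = 0.607 with it (exact permutation, adjusted p = 0.0286 and 0.25), and r was 0.954 without the 2 farthest arrays. Eosinophil peroxidase had r = 0.822 and rho = 0.607 with it (exact permutation, adjusted p = 0.0286 and 0.25), but r fell to -0.12 without MI replicates 2 and 3, on which that relation rested. Adjusted over all 45 relations of this kind, including those below, the p of these r values was 0.0655 and 0.0659. In AI and PI, eosinophil peroxidase and myeloperoxidase-like had r = 0.958 and 0.983 and rho = 0.976 in both (exact permutation, adjusted p = 0.000298 for both r and 0.00119 for both rho), and r was 0.865 and 0.985 without the 2 farthest arrays.

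The oxidase light chain followed the peroxidases in PI. Its r was 0.970 with myeloperoxidase, 0.972 with myeloperoxidase-like and 0.975 with eosinophil peroxidase (rho 0.857, 0.952 and 0.929), with adjusted exact permutation p values of 0.00112, 0.000781 and 0.000942 for r and 0.0193, 0.00293 and 0.00446 for rho. Without the 2 arrays farthest from the median of the peroxidase r was 0.961, 0.945 and 0.968. With the slide means removed it was 0.961, 0.969 and 0.966. These relations largely describe the distance between the upper and the lower set of PI arrays, and 4 arrays in each set are too few to test them inside a set. No r was computed within a single slide, which held 2 or 3 arrays of a segment.

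In AI and MI the light chain had no called relation to the peroxidases. Its r with them was 0.11 to 0.34 in AI and 0.36 to 0.38 in MI, its rho 0.17 to 0.29 and 0.46 to 0.57, and no adjusted p of the exact permutations was under 0.25. Without the 2 arrays farthest from the median of the peroxidase, r was between -0.19 and 0.05 in AI. In MI it was then between 0.03 and 0.53. The arrays left out in AI were replicates 3 and 8 or 7 and 8. AI replicate 2, on which the light chain was high, thus stayed in, and r without it was not computed. With the slide means removed r was -0.55 to -0.24 in AI and 0.07 to 0.16 in MI. The difference of these correlations between segments was not tested.

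**Figure D4:**
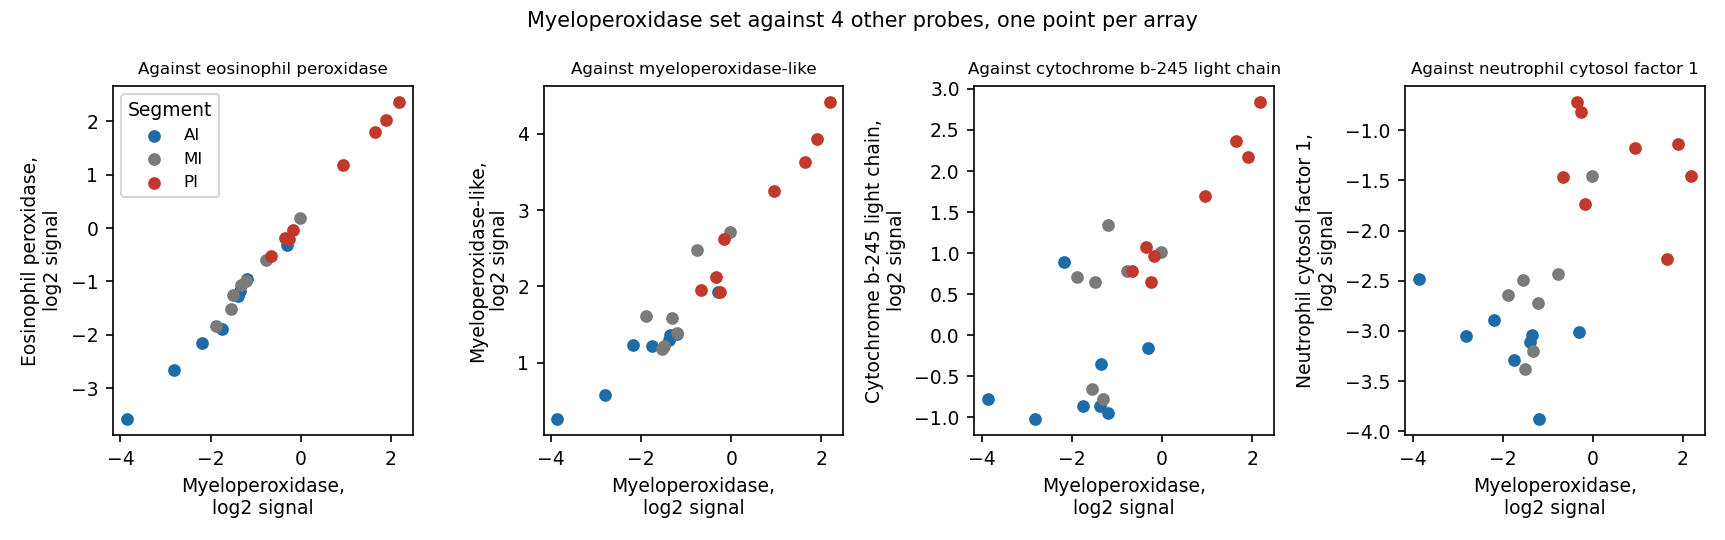
The log2 signal of myeloperoxidase (x axis) is set against that of eosinophil peroxidase, myeloperoxidase-like, cytochrome b-245 light chain and neutrophil cytosol factor 1 (y axes), with 1 point per array coloured by segment. The points lie close to a line for eosinophil peroxidase in all segments and for the light chain among the PI arrays, and are more scattered for neutrophil cytosol factor 1.

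Neutrophil cytosol factors 1 (CUST_L3_75782) and 2 (CUST_L12_86886), the cytosolic subunits on the array's named list, were higher in PI as well. Factor 1 had means of -3.09 ± 0.39 (SD, n = 8) for AI, -2.62 ± 0.62 (SD, n = 7) for MI and -1.35 ± 0.51 (SD, n = 8) for PI, and factor 2 of -0.73 ± 0.31, -0.37 ± 0.44 and 0.18 ± 0.23. PI exceeded AI-MI by 1.52 ± 0.23 (SE; 2.87-fold, limma, adjusted p = 7.07e-06) and 0.74 ± 0.15 (1.67-fold, limma, adjusted p = 0.000398). All 8 PI arrays were above every AI array for both factors, as were all 8 for myeloperoxidase-like, 7 of 8 for eosinophil peroxidase and 6 of 8 for myeloperoxidase and for the light chain. Both factors came from the same table of the study as the peroxidases.

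No relation of the cytosolic subunits to the light chain or the peroxidases across fish was called. In PI factor 1 had r of -0.35 to -0.42 and factor 2 of -0.13 to -0.33 with the 4 probes, with rho of -0.36 to -0.02. PI replicate 7, in the upper set for the peroxidases and the light chain, was the lowest PI array for both factors. In AI r lay between -0.59 and 0.37 and rho between -0.40 and 0.71, and in MI r between 0.20 and 0.75 and rho between 0.43 and 0.75. All 8 relations in MI were positive. For the 24 relations the lowest adjusted p of the exact permutations was 0.132 for r and 0.185 for rho over 45 relations. Without the 2 farthest arrays their r ran from -0.59 to 0.61. With each other, factors 1 and 2 had r of 0.772 in AI, 0.914 in MI and 0.745 in PI (rho 0.952, 0.964 and 0.786), with adjusted p values of 0.0873, 0.0122 and 0.0977 for r and 0.00642, 0.0114 and 0.0967 for rho (exact permutation), and r of 0.883, 0.832 and 0.817 without the 2 farthest arrays. These 27 relations were added after the values had been seen.

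Likeness of pattern was also searched among the 3534 tested probes with a name, as the Pearson r of deviations from the segment means over the 23 arrays, which share slides. For myeloperoxidase the most alike were eosinophil peroxidase (0.995), myeloperoxidase-like (0.921) and major facilitator superfamily domain-containing protein 10 (0.794). The last, a membrane transporter, was also among the 3 most alike for eosinophil peroxidase (0.786) and myeloperoxidase-like (0.782). Its means were -0.24 ± 0.34 in AI, -0.64 ± 0.42 in MI and 0.51 ± 0.61 in PI (SD, n = 8, 7 and 8). For the light chain the most alike were mucolipin-3, an endosomal and lysosomal cation channel (0.760), interleukin-22 receptor subunit alpha-2, a soluble receptor that binds interleukin-22 (0.757), and lunatic fringe, which adds a sugar to Notch receptors (0.745). No peroxidase was among the 3 probes most like the light chain over the 3 segments.

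Mast cell protease 1A had r of 0.67 to 0.70 with the 3 peroxidases for deviations over the 23 arrays. For the other 2 mast cell probes r was lower, at -0.35 to -0.13 for Kit and 0.20 to 0.42 for kita. Of the 15 AI-MI arrays, 5 showed Kit and 13 showed kita above background. Kit was thus mostly below background there, and its low r cannot tell whether it shares the pattern. Mast cell protease 1A was 0.73 log2 units higher in PI than in AI-MI (limma, adjusted p = 0.00643). The other probes of the list, the mast/stem cell growth factor receptors Kit and kita, were higher in PI by 1.17 and 2.11 (limma, adjusted p = 0.00117 and 7.81e-06). Duodenase-1, a serine protease named here only after its values were seen and not on the mast cell list, had r of 0.72 to 0.73 with the peroxidases. GATA-binding factor 6-A-like, also named afterwards, was more like myeloperoxidase (0.756) and eosinophil peroxidase (0.766) than Duodenase-1 was. Its segment means went the other way, at 1.47 in AI, 1.33 in MI and -0.04 in PI. Signal summed over the 3 probes of the list was 3.36 to 9.69 times the 75th percentile in AI. It was 5.67 to 11.2 in MI and 6.99 to 16.2 in PI, with all 3 probes above background on every PI array. The sum is nearly all mast cell protease 1A, whose mean in AI was 2.45, against -6.64 for Kit and -6.06 for kita. The part of mast cells in the peroxidase result was not tested.

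The probes of the granulocyte and phagocyte list were mostly, but not uniformly, higher in PI. Whether they read granulocytes and phagocytes or other cells was not tested. Of 13 listed probes 12 were tested in AI-MI vs. PI, 10 were higher and 2 lower in PI, with a median difference of 0.88. Interleukin-8, which attracts neutrophils in mammals, was higher by 1.91 (limma, adjusted p = 4.82e-08), the kinases Lyn and SYK, which signal downstream of immune receptors, by 1.30 and 1.16 (limma, adjusted p = 1.91e-08 and 5.42e-06), and the fatty acid receptor GPR84 by 0.79 (limma, adjusted p = 1.96e-05). The 2 that were lower were named after their values were seen. They were nephrosin, an astacin-like protease of carp and zebrafish leukocytes, and a high affinity immunoglobulin gamma Fc receptor I-like probe. Nephrosin was above background on 9 of 15 AI-MI arrays and on no PI array (at least 2.71-fold lower in PI, limma, adjusted p = 0.00464). The Fc receptor probe was lower by 1.52 (limma, adjusted p = 0.00155). It was above background on 10 of 15 AI-MI and 2 of 8 PI arrays, so the size of its difference is uncertain. The summed signal of the list was 14.4 to 21.4 in AI, 16.5 to 37.3 in MI and 25.6 to 54.9 in PI. That sum largely follows its brightest probe, coronin-1A, named after its values were seen, with means of 3.84 in AI, 4.05 in MI and 4.79 in PI. It is therefore not a measure of granulocyte or phagocyte content. The r of the 12 tested probes with myeloperoxidase ran from -0.33 to 0.60 with a median of 0.18. It was -0.07 for interleukin-8, 0.17 for Lyn, 0.40 for SYK and 0.00 for GPR84. With the light chain the r of the 12 probes ran from -0.35 to 0.40 with a median of 0.23.

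Markers of other blood cells moved in both directions. The 3 hemoglobin probes were lower in PI than in AI-MI, by 0.72 to 2.45, with a summed signal of 1.15 to 19.0 in AI, 3.30 to 43.3 in MI and 0.468 to 5.46 in PI, and their r with myeloperoxidase was -0.34 to -0.20. Of the 4 macrophage probes 2 were higher and 2 lower in PI, and their summed signal was 1.82 to 2.76 in AI, 2.26 to 4.32 in MI and 2.87 to 5.57 in PI. All 5 B cell and all 6 T cell probes were higher in PI, by 1.96 to 3.52 and by 0.90 to 2.29. The summed B cell signal was 0.716 to 4.39 in AI, 1.34 to 15.8 in MI and 6.06 to 47.2 in PI, and the T cell signal 1.73 to 3.72, 2.28 to 5.82 and 4.25 to 7.85. The B cell markers had r of -0.07 to 0.49 with myeloperoxidase (median 0.27) and the T cell markers of 0.05 to 0.50 (median 0.17). The macrophage probes had r of 0.04 to 0.52 with it (median 0.37) and the epithelial markers of -0.58 to 0.21 (median 0.18). With the light chain, r was 0.25 to 0.55 for the B cell, 0.31 to 0.48 for the T cell and -0.48 to 0.26 for the macrophage probes. All 5 epithelial markers were lower in PI, by a median of 0.91, and none of these lists had a probe below background on every array of a segment. The part of these cell types in the peroxidase result was not tested.

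Among the enzymes that make or remove the substrates of the peroxidases, 4 of 10 probes were higher and 6 lower in PI than in AI-MI, with a median of -0.64. Xanthine dehydrogenase/oxidase, which can make superoxide and hydrogen peroxide, was higher by 2.01 (limma, adjusted p = 3.19e-07). Catalase, which breaks down hydrogen peroxide, was lower by 1.38 (limma, adjusted p = 9.74e-08). The mitochondrial superoxide dismutase, which turns superoxide into hydrogen peroxide, was lower by 0.87 (limma, adjusted p = 5.80e-06). The phospholipid hydroperoxide glutathione peroxidase, which reduces lipid peroxides, had a mean of 5.49 in AI-MI and 4.49 in PI (limma, adjusted p = 4.70e-07). The highest r of the 10 with a peroxidase was 0.45, for peroxiredoxin-6 with eosinophil peroxidase. With the light chain the r of the 10 ran from -0.518 for catalase to 0.593 for xanthine dehydrogenase/oxidase, with a median of -0.18.

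Heme is the cofactor of the peroxidases and of the oxidase, and 3 of the 4 heme probes were higher and 1 lower in PI than in AI-MI. Heme-binding protein 2 was higher by 3.72, heme oxygenase, which degrades heme, by 1.08 and 5-aminolevulinate synthase, which starts its synthesis, by 0.90 (limma, adjusted p = 2.64e-12, 0.00818 and 0.00559). Delta-aminolevulinic acid dehydratase, the enzyme of the next step, was lower by 0.87 (limma, adjusted p = 0.00127), and the r of the 4 with myeloperoxidase ran from -0.61 for heme-binding protein 2 to 0.57 for the dehydratase. All the lists came from the table of genes that differed between AI-MI and PI, so their counts say which way each gene moved and not how many of such genes moved.

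**Figure D5:**
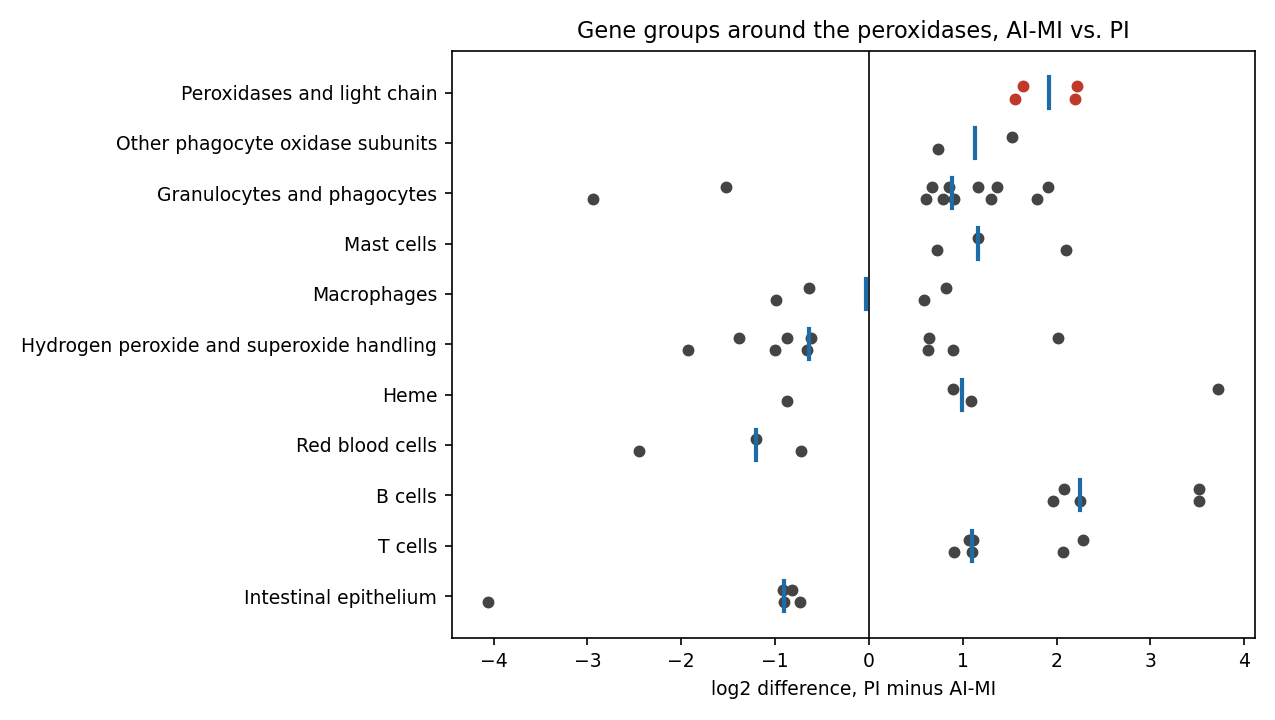
The log2 difference of PI from AI-MI (x axis) is shown for every tested probe of each gene group (y axis), except the posterior identity genes, which are not drawn. Filled points passed an adjusted p under 0.05, red marks the 3 peroxidases and the light chain, and blue bars are group medians. The peroxidases and the light chain lie between 1.55 and 2.22, B and T cell genes lie above 0, and the hemoglobins and epithelial genes lie below 0.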

How the data were processed

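The deposited scanner output held, per spot, a processed signal in intensity units, which the authors made with Agilent Feature Extraction 11.5.1.1 (background subtracted, no scaling between arrays), and median signals. The authors also deposited a log2 table of the same arrays, which follows the log2 processed signal minus the 75th percentile of the array and minus the median of the probe (median absolute difference per array 0.00245 to 0.0152), and it was used as an alternative. The amount of RNA labelled differs between the labels and the methods, and an eighth MI array was not analysed here.

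Spots marked as uneven or outlying (1 to 47 per array) were left out, spots of a probe were averaged, and log2 signals were centred on the 75th percentile of each array. No spot was saturated. The 12894 of 14147 probes that 7 or more of the 23 arrays showed above background were tested with limma 3.58.1 in R 4.3.3 (lmFit and eBayes, two-sided, only the arrays compared), with Benjamini-Hochberg adjustment over all tested probes and a threshold of 0.05. Exact permutations used Python 3.11.15 and numpy 2.4.6. Fits and the permutation test were tested on simulated data. A fold bound for a probe below background on every array of a segment was set against the lowest signal well above background on each array. Each array is 1 fish segment, and the p-values of the main fits measure the spread between arrays. Arrays of the same number may come from the same fish, so a fish may enter a comparison more than once. The number of arrays limits the precision.

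Probe names came from a table of the study, which names 3652 probes. Its fold changes, the authors' own comparisons, were not used. One listed probe that was not tested is not reported here. Genes named in the text were the 4 probes, those of marker lists taken from that table (at most 4 of a longer list, by smallest p in AI vs. PI) and the 3 named probes most like each of the 4. The probes and lists were chosen with earlier results of these data known. Summed list signals are sums of linear signals relative to the 75th percentile. No sequence is shown, because the sources used here give none for the probes.

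Array numbers are shared between segments. Deviations from the segment means correlated between AI and PI arrays of the same number (r 0.185 to 0.593, 8 of 8 over 0.1). These were treated as paired in the same-number differences, and the main fits did not pair arrays. The sign-flip test and the fits with the number as a block also matched arrays by number, including those of MI. For AI and MI and for MI and PI, 6 of 7 pairs passed. With slide means removed, 4 of 8 AI and PI pairs, 4 of 7 AI and MI pairs and 6 of 7 MI and PI pairs were over 0.1. The median r of the pairs was then 0.169 for AI and PI, 0.131 for AI and MI and 0.316 for MI and PI. By this measure AI and PI were not better matched than MI and PI. Alternatives were quantile normalization, normexp with an offset of 50 (on median signals), no filter, the authors' table, the methods' t-test on the same values, an eBayes prior with trend and robust estimation, a joint fit, blocks for number or slide, fits within slides and arrays left out. MI had no array of number 8, for which PI was set against AI alone.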

Additional observations from a re-analysis of the deposited data

Results flagged for a closer look

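Cytochrome b-245 light chain in AI had a high array that lay apart from its group, AI replicate 2 at 0.89, where the gap to the nearest of the other 7 arrays took 0.547 of the whole range (critical value 0.526). It was the only extreme past its critical value among 18 groups examined (6 probes in 3 segments), and chance passes about 1 in 20 such groups. The peroxidases on the same array were at -2.18 for myeloperoxidase, 1.23 for myeloperoxidase-like and -2.15 for eosinophil peroxidase, inside the range of the other AI arrays.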

How the results depend on the processing

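The direction of all 4 probes was the same in every comparison and alternative run. Within a single slide the AI-MI vs. PI call was lost for myeloperoxidase-like on slide 3 (1.60) and for the light chain on slides 1 and 3 (1.90 and 1.70). The AI vs. PI call was lost on slides 1 and 2 for myeloperoxidase (2.79 and 1.96) and eosinophil peroxidase (2.92 and 2.05), and on slides 1 and 3 for myeloperoxidase-like (2.32 and 2.09) and the light chain (2.34 and 2.17). The MI vs. PI calls were lost on slides 1, 2 and 3, at 2.33, 1.72 and 1.96 for myeloperoxidase, 1.70, 1.40 and 1.11 for myeloperoxidase-like, 2.34, 1.64 and 2.04 for eosinophil peroxidase and 1.45, 1.12 and 1.24 for the light chain. These fits had 5 to 8 arrays, and called 1410, 3508 and 2033 probes in AI-MI vs. PI, 481, 3005 and 1531 in AI vs. PI and 1268, 1404 and 261 in MI vs. PI. The methods' t-test lost the MI vs. PI call of the light chain (1.13, adjusted p = 0.0546). Leaving out 1 array moved that difference between 0.93 and 1.28, that of AI vs. MI between 0.80 and 1.15, and the probes called in AI vs. MI between 0 and 588. A joint fit of the segments called 49 probes in AI vs. MI, and removing AI replicate 2 and MI replicate 7 called 1048, with the light chain at 1.33.

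With the replicate number as a block no call of the 4 probes changed (myeloperoxidase 2.31 in AI-MI vs. PI, 2.51 in AI vs. PI, 2.02 in MI vs. PI and 0.39 in AI vs. MI), and 6806, 6741, 5500 and 0 probes were called in those comparisons. In the exact sign-flip test over numbers, added after seeing the data, no call of an unequal change between the probes was lost or gained. The normexp correction moved the median of all tested probes in AI-MI vs. PI from -0.01 to -0.13 and the share of calls that were higher in PI from 51.2% to 36.3% (from 53.6% to 40.2% in MI vs. PI). Under it the inequality of myeloperoxidase and myeloperoxidase-like fell to 0.29, that of myeloperoxidase and eosinophil peroxidase was called at -0.16, and that of myeloperoxidase-like and the light chain turned to 0.12, uncalled in both. In MI the r of myeloperoxidase-like with myeloperoxidase and eosinophil peroxidase fell to 0.80 and 0.74 and lost the adjusted threshold under normexp. That alternative for the correlations was chosen after seeing the data. The cause was not tested for any of these.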
